A study of Mus musculus with 8 samples.

Results

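The genes described here encode the machinery that makes ribosomes: subunits and initiation factors of RNA polymerase I, proteins of small nucleolar ribonucleoproteins, nucleolar proteins, and assembly factors of the small and large ribosomal subunits. The set held 32 genes chosen by name, and 30 of them were measured, out of 17098 genes tested. Gnl3, a nucleolar GTP-binding protein, had no probe set of its own in the annotation used, and the probe set listed for Taf1c names more than 1 gene, so neither was analysed here. All cells were HPRT deficient mouse embryonic stem cells of strain C57BL/6 at passages 19 to 22, and both groups therefore carried the HPRT deficiency. They had been passaged on feeder cells and then on gelatin before the experiment. In 4 samples the medium contained 2.5 µM cisplatin, a platinum drug that crosslinks DNA, and in 4 control samples it contained the solvent DMSO; the labelled time was 8 h. The labels number the samples of each group 3 to 6 and do not say whether these were separate cultures, so every p-value rests on variation among 4 samples a group that could be technical.

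RNA polymerase I transcribes the repeated ribosomal DNA genes in the nucleolus into a long precursor. Small nucleolar ribonucleoproteins guide the chemical modification of that precursor, and a large set of assembly factors folds and cuts it while ribosomal proteins join. The nucleolus is known to respond to DNA damage, and cisplatin is known to lower RNA polymerase I transcription; the arrays measured messenger RNA of the genes that encode the machinery, not its activity.

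Most of these genes changed little after 8 h of cisplatin. Of the 30 measured, 2 rose (Polr1e and Taf1a), 2 fell (Ubtf and Wdr43) and 26 did not pass the test, which was limma with Benjamini-Hochberg adjustment over all 17098 genes and a threshold of 0.05. The 4 calls made 13.3% of the members, whereas 19.3% of all genes tested were called (3303 genes), 11.6% of them higher (1989) and 7.69% lower (1314). Values are log2 RMA expression, and a change is the mean of the cisplatin arrays minus the mean of the control arrays on that log2 scale. Changes of members ranged from −0.29 to 0.30, 18 of 30 were smaller than 0.1 in size, 24 lay below 0 and 6 above, and the median was −0.07, where the median over all genes tested was 0.01. With the arrays centred on their own medians, every change became 0.13 lower. The median over members was then −0.20 against −0.12 over all genes, and 17 members were called lower and none higher. Those array medians (4.53 to 4.72) lay below the upper background of 4.89 described below. Centring on genes above background, chosen after seeing the data, gave 1 member higher and 2 lower, with a median of −0.09. Renewed quantile normalization also gave 1 and 2, with a median of −0.07. The number of calls therefore depends on the scaling, while the median over members was below 0 under each scaling. Polr1c, Nop14 and Nop2, small rises as reported, lay below 0 with centring on array medians (−0.08, −0.12 and −0.11). The 4 cisplatin arrays and the 4 control arrays did not overlap in 6 of 30 members (Polr1e and Taf1a higher, and Polr1a, Ubtf, Wdr43 and Pno1 lower), and in 24.3% of all genes tested.

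**Figure D1:**
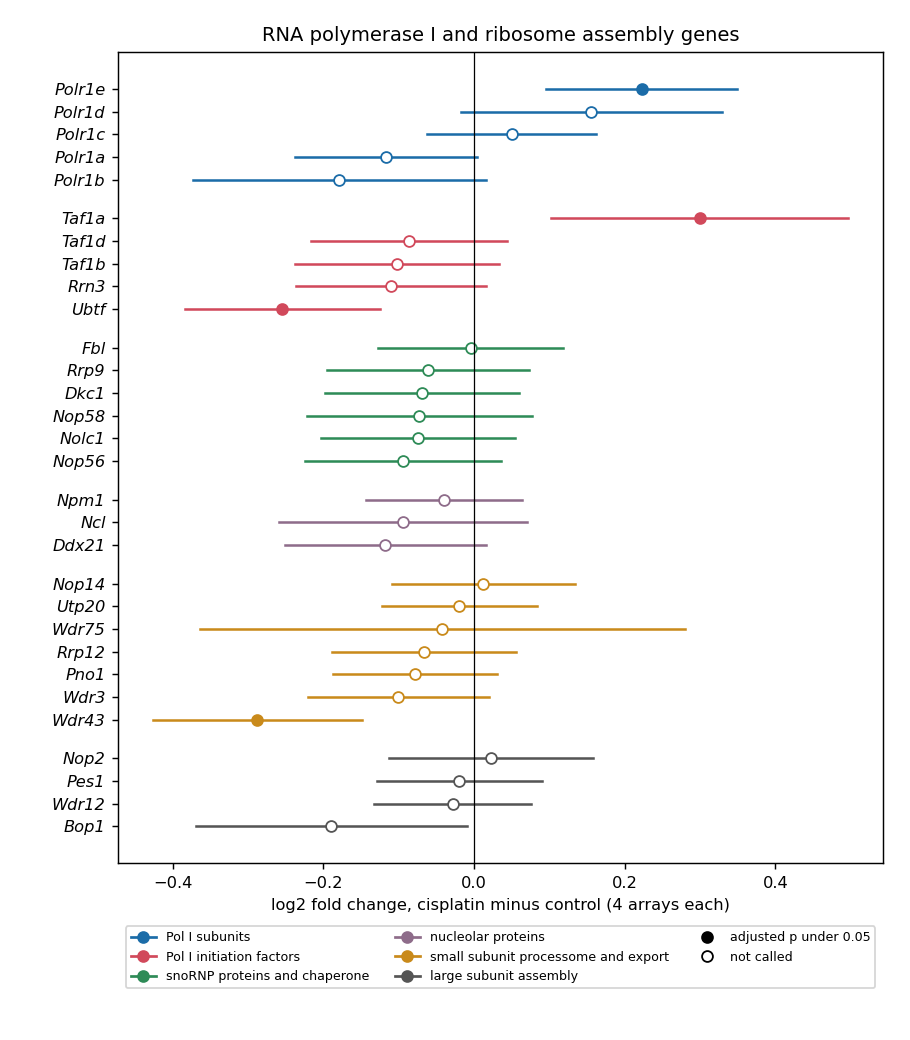
Change of each of the 30 measured genes (log2 expression, cisplatin minus control) with its 95% limma interval, grouped by role; filled points passed an adjusted p of 0.05. The 2 genes called higher reach 0.22 and 0.30, the 2 called lower reach −0.25 and −0.29, and most other points lie left of 0 with intervals that include it.

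For the genes that were not called, the intervals bounded how large a change could have been on this scale. Of the 26, 22 had a 95% interval that stayed within 0.3 of 0 on the log2 scale, with bounds from −0.26 to 0.16. The bound of −0.26 came from Ncl, whose probe set read near background, so its interval does not bound the transcript. The intervals of Polr1b, Polr1d, Wdr75 and Bop1 reached past 0.3. Standard errors of the members' changes lay between 0.05 and 0.14, with a median of 0.06.

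The level of a probe set was read against background probes on the same arrays. Probes with 24 G or C bases out of 25 gave a mean of 3.10, and those with 25 gave 4.89. The probe sets of Wdr75 (mean 3.61) and Ncl (mean 3.10) were not well above these values in either group, so their changes say little about the transcripts. Among genes not below the 25 G or C background in both groups, 31.6% were called (2650 of 8375), and all 4 called members were among these genes.

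**Figure D2:**
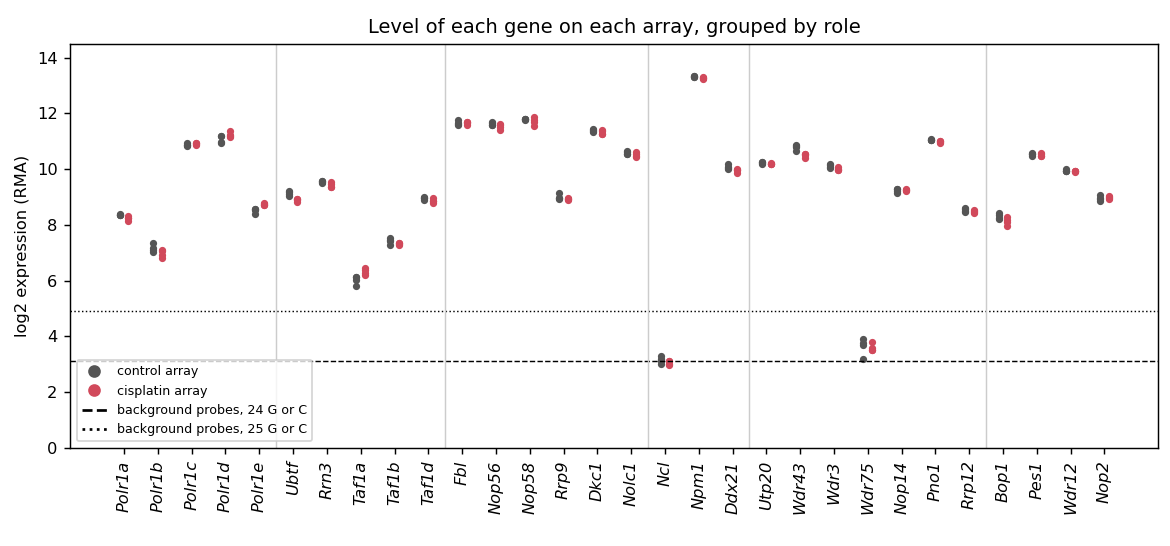
Level of each measured gene on each array (log2 RMA, 1 point per array; 4 control and 4 cisplatin arrays), grouped by role and separated by grey lines, with the levels of 2 background probe sets as dashed and dotted lines. Levels of different genes come from different probes and are not compared; Ncl and Wdr75 lie below the dotted line at 4.89, and the points of both groups lie close together in most genes.

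The median over all genes tested lay between 4.63 and 4.72 on the cisplatin arrays and between 4.53 and 4.57 on the control arrays. The groups therefore did not overlap, and centring on array medians removes this offset. These medians lay below the upper background of 4.89, while the median level of the members was 9.71. With centring on genes above background, the median change over members was −0.09, against −0.07 as reported. Whether the offset of the array medians holds at the members' level was not tested. Measures of RNA quality and of ribosomal RNA did not pass a test between the groups. Adjusted over 5 values, a single one could not have passed even with full separation of the groups. The lack of a call therefore does not show that the groups were equal. The difference between 3′ and 5′ probes of Actb, which rises as RNA is degraded, was 0.53 ± 0.01 with cisplatin and 0.54 ± 0.03 in controls (SD, n = 4 each; two-sided exact permutation p = 0.429, where 0.0286 is the smallest possible). Probe sets for the 5′ part of mature 18S ribosomal RNA read 12.83 ± 0.06 and 12.83 ± 0.03 (exact permutation p = 0.886). The adjusted p of each of the 5 control values tested was 0.886. Labelling used a 3′ kit for messenger RNA, so the 18S signal is not a measure of ribosomal RNA amount or synthesis. Arrays correlated at 0.997 to 0.998 within groups and at 0.992 to 0.995 between them. Of 9 markers of pluripotent cells measured, 5 fell and none rose (55.6% called, against 19.3% of all genes tested). The falls were those of Esrrb (−0.55), Zfp42 (−0.34), Lin28a (−0.33), Nanog (−0.25) and Utf1 (−0.22). Array means of these markers were 11.02 to 11.09 after cisplatin and 11.24 to 11.27 in controls. The groups did not overlap, and the means were high in every sample. Of 15 feeder fibroblast markers, Thy1 rose by 0.61 and Fn1 fell by 0.32, and 8 lay below the lower background in both groups; array means were 3.63 to 3.95 and 3.70 to 3.88. Of 9 early differentiation markers 1 fell (Pax6, −0.77), with array means of 3.43 to 3.57 and 3.52 to 3.66. The part of cell makeup in the members' changes was not tested, and in bulk RNA fewer cells of a type and less RNA per cell cannot be told apart.

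Among the 5 measured subunits of RNA polymerase I, Polr1e rose and the other 4 were not called; their median change was 0.05. Polr1e, the subunit known in yeast as A49, read 8.79, 8.73, 8.75 and 8.70 on cisplatin arrays 3 to 6 and 8.57, 8.40, 8.53 and 8.57 on control arrays 3 to 6. Every cisplatin array was above every control array. The difference was 0.22 ± 0.06 (SE; 95% interval 0.10 to 0.35; limma adjusted p = 0.0206), a 1.17-fold rise. It was no longer called when cisplatin replicate 3 (adjusted p = 0.0536), cisplatin replicate 5 (0.0501) or control replicate 4 (0.0543) was left out, or when arrays were centred on their medians (0.09, adjusted p = 0.295).

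Polr1a, the largest subunit, which forms the catalytic centre together with Polr1b, read 8.25, 8.24, 8.14 and 8.32 with cisplatin and 8.35, 8.33, 8.35 and 8.38 in controls. Its groups did not overlap, yet the change of −0.12 ± 0.05 had an adjusted p of 0.176 (limma). The other 2 probe sets of Polr1a gave −0.11 and −0.14. Polr1b, the second largest subunit, differed by −0.18 ± 0.09 (limma adjusted p = 0.198). Control arrays 3 and 6 lay above every cisplatin array, and control arrays 4 and 5 lay within the cisplatin range. Polr1c and Polr1d, which form the assembly platform shared with RNA polymerase III, differed by 0.05 ± 0.05 and 0.16 ± 0.08 (adjusted p = 0.572 and 0.207). Polr1d ranged from 11.15 to 11.36 with cisplatin and from 10.93 to 11.20 in controls, and Polr1c from 10.88 to 10.95 and from 10.81 to 10.93, so both overlapped. For Polr1d the second probe set had the opposite sign, at −0.07.

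Of the initiation factors, which bring the polymerase to the ribosomal DNA promoter, Taf1a rose, Ubtf fell, and 3 were not called. Ubtf encodes the upstream binding factor, which keeps active ribosomal DNA open. Its level was 8.88, 8.91, 8.81 and 8.93 on cisplatin arrays 3 to 6, and 9.10, 9.23, 9.05 and 9.17 on the control arrays. All cisplatin values lay below all control values. The change was −0.25 ± 0.06 (95% interval −0.38 to −0.12; limma adjusted p = 0.0123), or 1.19-fold lower, and the call held in all 20 alternative settings, with a highest adjusted p of 0.0463. A second Ubtf probe set gave −0.33 (adjusted p = 0.0466 over all probe sets).

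Taf1a encodes a subunit of selectivity factor SL1, the complex that recognises the core promoter. It read 6.37, 6.27, 6.19 and 6.46 with cisplatin and 6.12, 6.13, 5.80 and 6.04 in controls. The groups did not overlap, but control array 5 was the lowest and the gap between the groups was small. The rise was 0.30 ± 0.09 (95% interval 0.10 to 0.50; limma adjusted p = 0.0393), or 1.23-fold. This call was lost when any one of cisplatin replicate 3 (adjusted p = 0.0839), 4 (0.0649) or 6 (0.10) or control replicate 5 (0.0804) or 6 (0.0706) was left out, and under 4 other settings, among them centring on the array medians (0.17, adjusted p = 0.188). The other SL1 subunits Taf1b and Taf1d gave −0.10 ± 0.06 and −0.09 ± 0.06 (adjusted p = 0.30 and 0.369), and Rrn3, which links the polymerase to SL1, gave −0.11 ± 0.06 (adjusted p = 0.225). Rrn3 ranged from 9.37 to 9.53 with cisplatin and from 9.49 to 9.57 in controls. Taf1b lay between 7.29 and 7.34 against 7.29 to 7.53, and Taf1d between 8.78 and 8.97 against 8.89 to 9.01, so the groups of all 3 genes overlapped.

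**Figure D3:**
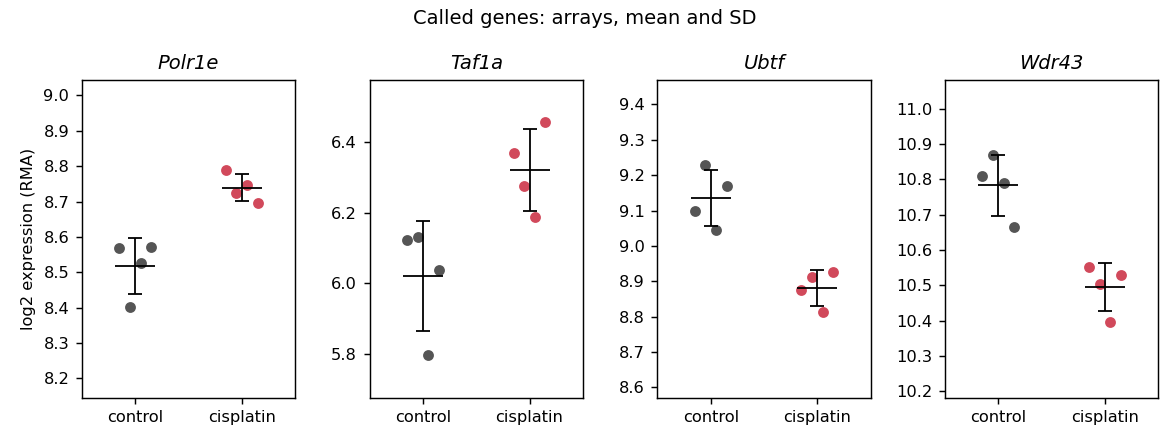
Level of the 4 called genes on each array (log2 RMA). Points are arrays, horizontal bars are group means and capped vertical lines are the SD. Each panel spans the same number of log2 units. Polr1e and Taf1a lie higher on all 4 cisplatin arrays, and Ubtf and Wdr43 lie lower on all 4.

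Promoter sequence was read for 28 of the 32 genes from RefSeq (GRCm38.p6). A gene counted as holding a motif if any of its annotated starts had it in the 250 bases before, on either strand. The comparison was all 27025 genes with a promoter entry, not only those tested. The E-box CACGTG holds the letters that Myc and related factors bind. It was found in 2 of 28 members (Nop2 and Rrn3, 7.14%) and in 6.86% of the 27025 genes. The ETS core GGAAGT was in 10 members (35.7%) and 22.2% of genes. The letters TATAAA were in 2 (Dkc1 and Pes1; 7.14%) and 14.3%, and the GC box GGGCGG, a motif added after the data were seen, in 18 (64.3%) and 35.4%. The 120 bases before the start are shown for the 2 genes that rose and for the 2 with an E-box, from 5′ to 3′ on the plus strand, which is the strand of each gene; capitals mark these motifs on either strand. They are Polr1e at chr4:45018489-45018608, Taf1a at chr1:183388765-183388884, Rrn3 at chr16:13780579-13780698 and Nop2 at chr6:125131763-125131882.
Polr1e: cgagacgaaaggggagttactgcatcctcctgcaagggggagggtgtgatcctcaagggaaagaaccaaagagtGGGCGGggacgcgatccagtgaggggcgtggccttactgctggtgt
Taf1a: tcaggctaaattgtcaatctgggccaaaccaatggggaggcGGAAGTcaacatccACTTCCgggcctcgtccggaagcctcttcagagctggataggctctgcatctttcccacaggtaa
Rrn3: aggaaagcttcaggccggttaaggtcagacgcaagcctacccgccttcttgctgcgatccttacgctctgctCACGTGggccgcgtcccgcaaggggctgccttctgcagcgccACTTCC
Nop2: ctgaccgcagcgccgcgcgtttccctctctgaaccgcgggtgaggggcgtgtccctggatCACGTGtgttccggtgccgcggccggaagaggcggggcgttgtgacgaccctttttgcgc
In these stretches Polr1e holds a GC box and Taf1a a pair of ETS cores. The 2 genes that fell hold the same motifs in their 250 bases. These are a GC box in Ubtf and both a GC box and an ETS core in Wdr43. Neither stretch is shown, and that of Ubtf overlaps an annotated gene. The 2 genes with an E-box, Rrn3 and Nop2, were not called (−0.11 and 0.02). Such a match is a description of the letters and was not tested against the changes.

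None of the 6 small nucleolar ribonucleoprotein genes was called, and their median change was −0.07. Nop56, a core protein of the box C/D particles that guide methylation of ribosomal RNA, read 11.50, 11.58, 11.42 and 11.61 with cisplatin and 11.68, 11.59, 11.58 and 11.64 in controls, with overlapping groups. Its change was −0.09 ± 0.06 (limma adjusted p = 0.321). Nolc1, a chaperone of these particles in the nucleolus and Cajal bodies, read 10.53, 10.47, 10.44 and 10.61 against 10.55, 10.62, 10.54 and 10.65, a difference of −0.07 ± 0.06 (adjusted p = 0.438). Again the groups overlapped, with cisplatin array 6 above 2 of the control arrays.

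Fbl, the methyltransferase fibrillarin, showed the smallest change of the members, −0.00 ± 0.06, with a 95% interval of −0.13 to 0.12. Nop58, the partner of Nop56, gave −0.07 ± 0.07, Rrp9, a protein of the U3 particle needed for precursor cutting, gave −0.06 ± 0.06, and Dkc1, the pseudouridine synthase dyskerin of the box H/ACA particles, gave −0.07 ± 0.06. Fbl ranged from 11.60 to 11.68 with cisplatin and from 11.58 to 11.75 in controls, a span that took in every cisplatin array. For Nop58 the cisplatin arrays were the more spread, from 11.56 to 11.85 against 11.76 to 11.81. Rrp9 ranged from 8.90 to 8.97 against 8.92 to 9.14, and Dkc1 from 11.25 to 11.41 against 11.32 to 11.44. The probe sets of Polr1c, Fbl and Nop56 are of a kind that can read more than 1 related transcript.

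Of the nucleolar proteins, none of the 3 measured was called. Their median, −0.09, was the value of Ncl, whose probe set read near background. Ddx21, an RNA helicase found at ribosomal DNA, read 9.98, 9.85, 9.98 and 10.02 with cisplatin and 10.17, 10.04, 10.07 and 10.01 in controls. Control arrays 3, 4 and 5 were above all cisplatin arrays and control array 6 was within their range; the change was −0.12 ± 0.06 (limma adjusted p = 0.217). Ncl, nucleolin, read 2.96, 3.01, 3.12 and 3.12 against 3.10, 3.00, 3.18 and 3.30, near background in every sample, and gave −0.09 ± 0.07 (adjusted p = 0.445). Npm1, the histone chaperone nucleophosmin, had the narrow interval of −0.14 to 0.06 around a change of −0.04 ± 0.05. Its arrays read 13.25 to 13.31 with cisplatin and 13.30 to 13.35 in controls, overlapping at one end.

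Among 7 small subunit factors, Wdr43 fell and 6 were not called, with a median of −0.07. Wdr43, a WD-repeat protein of the processome that assembles on the nascent precursor, read 10.55, 10.50, 10.40 and 10.53 on cisplatin arrays 3 to 6 and 10.81, 10.87, 10.79 and 10.66 on control arrays 3 to 6. Every cisplatin array was below every control array, and control array 6 was the closest to them. The change was −0.29 ± 0.06 (95% interval −0.43 to −0.15; limma adjusted p = 0.00914), 1.22-fold lower, and had the largest size among members that fell. The call held in all 20 alternative settings, with a highest adjusted p of 0.0296, and a second Wdr43 probe set gave −0.37 (adjusted p = 0.00312 over all probe sets).

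Wdr3, a neighbouring WD-repeat protein of the processome, read 10.02, 9.98, 9.95 and 10.08 against 10.13, 10.08, 10.05 and 10.17, with a change of −0.10 ± 0.05 (adjusted p = 0.245). Cisplatin array 6 overlapped the controls. Pno1, which binds the late small subunit precursor, was lower on all cisplatin arrays by a small amount, −0.08 ± 0.05 (adjusted p = 0.326). Utp20 and Nop14, both processome proteins, gave −0.02 ± 0.05 and 0.01 ± 0.05, and Rrp12, which takes part in export of the subunits, gave −0.07 ± 0.05. Wdr75, near background, gave −0.04 ± 0.14. Pno1 ranged from 10.92 to 11.02 with cisplatin and from 11.03 to 11.09 in controls. Utp20 read 10.20 on every cisplatin array after rounding and 10.19 to 10.24 in controls, the tightest cisplatin group among the members. Nop14 ranged from 9.21 to 9.30 against 9.14 to 9.28, and Rrp12 from 8.42 to 8.54 against 8.48 to 8.61.

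None of the 4 large subunit genes was called; their median was −0.02. Bop1, Pes1 and Wdr12 encode the PeBoW complex, which is needed to process the large subunit precursor. Bop1 read 8.28, 8.10, 7.95 and 8.16 with cisplatin and 8.34, 8.21, 8.25 and 8.44 in controls, with cisplatin array 3 above 2 control arrays. The change was −0.19 ± 0.08, with an unadjusted p of 0.0406 and a limma adjusted p of 0.139. Wdr12 read 9.93, 9.89, 9.95 and 9.92 against 9.94, 9.95, 9.93 and 9.99, a difference of −0.03 ± 0.05 (adjusted p = 0.752), and its second probe set gave 0.08. Pes1 gave −0.02 ± 0.05, and Nop2, a methyltransferase of the large subunit RNA, gave 0.02 ± 0.06. Pes1 ranged from 10.48 to 10.56 with cisplatin and from 10.49 to 10.56 in controls, and Nop2 from 8.92 to 9.02 against 8.85 to 9.08, so both overlapped widely.

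Small nucleolar RNA genes lie inside some of these genes, which their choice did not use. In the RefSeq annotation, 7 of the 32 genes contain small nucleolar RNA genes (Taf1d 6, Nop56 5, Nop58 4, Gnl3 3, Wdr43 3, Ncl 2 and Dkc1 1), and 325 of 16937 genes tested do (1.92%). The 6 of these that were measured had a median change of −0.09 and the 24 others −0.05. The 30 genes were covered by 50 probe sets; of the 20 not used, 18 had the sign of the one used, with Polr1d and Wdr12 as exceptions.

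Other genes of the pathway gave the setting. In 7 lists drawn from textbook knowledge, 187 of 220 genes were measured, 8 rose and 10 fell (9.63% called, against 19.3% of all genes tested), and the median was 0.01. With arrays centred on their medians the lists held 2 genes called higher and 44 lower. Among 7 other subunits and factors of RNA polymerase I, 2 rose and none fell, with a median of 0.10. Ttf1, the transcription termination factor of RNA polymerase I, stood highest: it read 7.03, 7.20, 7.22 and 7.17 on cisplatin arrays 3 to 6 and 6.27, 6.36, 6.60 and 6.30 on control arrays 3 to 6. The groups were well separated, and the rise of 0.77 ± 0.08 (limma adjusted p = 0.000172) was called in all 20 alternative settings, with 0.53 in a second probe set (adjusted p = 0.000714). Polr2l, a small subunit of all 3 polymerases, rose by 0.17 ± 0.05 (adjusted p = 0.0299), a call lost in 11 settings, among them the removal of any one array but control replicate 6 (adjusted p 0.0553 to 0.0815), and Polr2f, another shared subunit, gave 0.10 (adjusted p = 0.178).

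Of the 99 other assembly factors measured out of 113, 3 rose and 8 fell (11.1% called), and their median was −0.03. Among 9 small nucleolar ribonucleoprotein factors with a median of 0.05, Tcof1, the nucleolar protein treacle, fell by 0.19 ± 0.06 (limma adjusted p = 0.0426), a call lost in 8 settings; Gar1 (0.08) and Pih1d1 (0.11) were not called. Among 39 small subunit factors, 2 rose and 3 fell, with a median of −0.03: Rrp36 rose by 0.42 ± 0.05 (adjusted p = 0.000265), Pwp2 rose by 0.26 ± 0.06 (0.00907), and the RNA helicase Ddx10 fell by 0.45 ± 0.05 (0.00035). Esf1 (−0.25) and the kinase Riok1 (−0.18) also fell. Among 51 large subunit factors, 1 rose and 4 fell, with a median of −0.04: Urb2 fell by 0.40 ± 0.07 (0.00281), the export adaptor Nmd3 fell by 0.21 ± 0.06 (0.025), and the helicase Ddx56 rose by 0.26 ± 0.06 (0.0117). Tex10 (−0.19) and Rrs1 (−0.22) fell too; these and Esf1 and Riok1 were picked out after their values were seen. With 1 array left out, Tcof1 and Tex10 lost their call for every array but cisplatin replicate 3 (adjusted p 0.0563 to 0.107 and 0.0581 to 0.0976), and Rrs1 for every array but cisplatin replicate 5 (0.0549 to 0.106). For Riok1 the arrays on which the call rested were cisplatin 3 and 6 and control 3, 4 and 5 (0.0504 to 0.0664 when one was removed), and for Nmd3 they were cisplatin 4 and 5 and control 3 and 5 (0.06 to 0.0751). A second bright probe set of Nmd3 gave −0.30 (adjusted p = 0.00615 over all probe sets), and its most variable one, with a mean of 4.17 below the upper background, gave 0.12. The rises of Pwp2 and Ddx56 were not called when arrays were centred on their medians.

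The other polymerases and the ribosomal proteins differed in their counts from one another, which was not tested. Of 8 RNA polymerase III subunits, 2 fell and none rose: the largest subunit Polr3a by 0.27 ± 0.05 (limma adjusted p = 0.00338) and Polr3e by 0.27 ± 0.05 (0.00406), while Polr3b gave −0.16 (0.0666). Of 7 RNA polymerase II subunits, 3 rose and none fell: Polr2d by 0.25 ± 0.05 (0.00933), Polr2g by 0.23 ± 0.05 (0.0132) and the largest subunit Polr2a by 0.33 ± 0.09 (0.0324). None of these 3 rises was called with arrays centred on their medians (0.12, 0.10 and 0.20), and Polr2a, whose groups overlapped, also lost its call without any one array but cisplatin replicate 3 or control replicate 6 (0.0678 to 0.0903). Centring lowers every change, so a rise becomes smaller and a fall larger by construction. Both falls of RNA polymerase III subunits were called in all 20 settings. A second probe set of each was not called over all probe sets. It gave −0.19 for Polr3a (limma adjusted p = 0.0549) and −0.15 for Polr3e (0.285). Of 66 ribosomal protein genes none was called, with a median of 0.01 and a range of −0.06 to 0.06; Rps15 and Rpl22 gave 0.06 each and Rpl9 0.04.

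**Figure D4:**
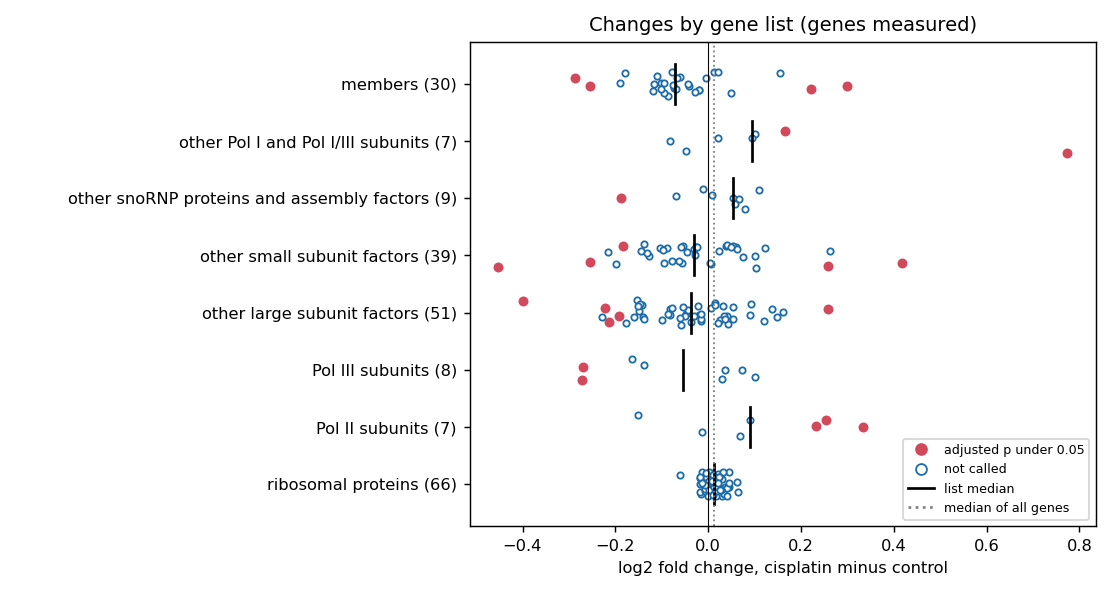
Change of each measured gene (log2 expression, cisplatin minus control) in the members and in 7 pathway lists, with the number measured in brackets; filled points passed an adjusted p of 0.05, black bars are list medians and the dotted line is the median of all genes. The members spread from −0.29 to 0.30, Ttf1 stands alone at 0.77, and the 66 ribosomal protein genes lie within 0.06 of 0.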

How the data were processed

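Messenger RNA was amplified and labelled with a 3′ kit and hybridised to Affymetrix arrays, per the labels' protocols. The deposited values are log2 RMA expression; the submitters' processing notes name RMA and limma, with no version given. RMA includes a normalization between arrays, yet the medians over the genes tested still differed between groups, so centring was tried. Of 45141 probe sets, 104 were controls, 28898 named 1 gene, 551 several and 15588 none in the annotation used. Each gene was read from 1 probe set, the one of highest mean over 8 arrays. The test was limma 3.58.1 (R 4.3.3), lmFit and eBayes with group as the only term, adjusted (Benjamini-Hochberg) over 17098 genes, threshold 0.05; array controls had an exact permutation test. The fit was tested on simulated data. The number of arrays limits the precision. The members and lists were chosen with earlier results of these data known. All members are named. Each role's 2 members with the smallest p, and those with the largest rise and fall, are given on every array, and 3 genes per list are named by smallest p. Changes in the probe set choice, filter, scaling and test, and each array left out, were tried. Figures used Python 3.11.15 and matplotlib 3.10.9.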

Additional observations from a re-analysis of the deposited data

Results flagged for a closer look

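Of 106 groups of 4 arrays examined, 5 held an array far from the other 3, and chance alone passes about 1 in 20. Among members this was Taf1b on cisplatin replicate 5, at 7.289 where the others lay between 7.328 and 7.336. In the pathway lists, Esf1 was low on cisplatin replicate 5 (9.757, others 9.891 to 9.908) and on control replicate 5 (10.01, others 10.15 to 10.17), and Polr2g was low on control replicate 5 (10.68, others 10.8 to 10.82). The 3′ minus 5′ difference of Gapdh was −0.176 on cisplatin replicate 3, with the others between −0.1375 and −0.1311.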

How the results depend on the processing

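Of 597 member values under 20 alternatives, 569 stayed on the same side of the threshold, 13 were called only in the reported setting, 15 only elsewhere, all of them under centring, and 0 took the opposite sign with a call in either setting. The sign did change in 14 values of 7 members that were called in neither setting (Polr1c, Polr1d, Fbl, Wdr75, Nop14, Wdr12 and Nop2). Against 2 members higher and 2 lower as reported, centring arrays on their medians gave 0 higher and 17 lower (all genes 1087 and 3925, pathway lists 2 and 44, median over members −0.20). One member was higher after renewed quantile normalization (Taf1a not called, 0.21, adjusted p = 0.139), with an ordinary t statistic (Taf1a adjusted p = 0.0964) and with centring on genes above background, chosen after seeing the data (Taf1a adjusted p = 0.052); these 3 counts were 1. Leaving out 1 array gave 0 to 2 members higher, 2 lower throughout, and pathway counts of 6 to 9 higher and 5 to 8 lower. Without cisplatin replicate 3, no member was called higher. Pathway counts of 8 higher and 10 lower as reported became 13 higher with the most variable probe set, 13 and 21 without genes below the 25 G or C background, and 15 and 21 with an intensity trend; lower counts were 17 without genes below the 24 G or C background and 16 with centring on genes above background, both chosen after seeing the data. With the most variable probe set Nmd3 was 0.12 (adjusted p = 0.545), the opposite sign; that probe set lay below the 25 G or C background, and the cause was not tested. Same-numbered samples deviated together with correlations of 0.199, 0.181, 0.201 and 0.0649, and each cisplatin array correlated best with the control of its number, a hint from the data; since not every pair was over 0.1 and control 6 correlated best with cisplatin 3 (0.106), the pairing was not taken as established. With the number as a replicate block, 2 members were higher and 2 lower, all genes gave 2111 and 1336, and pathway lists 7 and 10; among named pathway genes Polr2l (adjusted p = 0.0536) and Tex10 (0.0663) were then not called. The filter at the 25 G or C background removed Ncl and Wdr75, and Nop56 was not tested without probe sets that read several transcripts.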
